A study of Mus musculus with 6 samples.

Results

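The renin-angiotensin system is a peptide hormone cascade, and 7 of its genes were described here in sorted skin fibroblasts: Agtr2, Agtr1a, Agt, Ace, Enpep, Lnpep and Agtrap. Every array probe set whose annotation names only 1 of these genes was taken. That gave 8 probe sets for 6 of the 7 genes, among 34945 single-named probe sets and 18193 genes in all, and Lnpep was not analysed here. The list was chosen by function but also selected on measured values, since the contrast of the 2 groups was already known, above all the low values of Agtr2 in fibroblasts of dysplastic skin. Their differences between the groups are therefore given as a description, with no test.

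Normal dermal fibroblasts (NDF) came from normal ears of non-transgenic FVB/n mice, and the fibroblasts of dysplastic skin (CAF, for cancer-associated fibroblasts) from K14-HPV16 mice whose ears were visibly dysplastic. All mice were 4 months old and are labelled male. K14-HPV16 mice carry genes of a human papillomavirus under a keratin promoter that is active in basal keratinocytes, so the transgene acts in the epidermis and the fibroblasts themselves are not its target. Cells positive for PDGFRα, a receptor on the fibroblast surface, were sorted in both groups from suspensions of the ears of 15 mice per genotype. Each group had 3 arrays, called biological repetitions in the labels, which do not say whether each came from its own pool. Any p-value below thus measures the spread between these 3 samples per group, which may be technical.

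In the classical cascade the enzyme renin cuts angiotensinogen, the product of Agt, to angiotensin I, and angiotensin-converting enzyme, the product of Ace, trims that peptide to angiotensin II. Angiotensin II acts on 2 kinds of receptor, AT1 (Agtr1a and Agtr1b in mice) and AT2 (Agtr2). AT1 drives contraction, growth and matrix production, whereas AT2 opposes many AT1 effects, is abundant in fetal mesenchyme and is scarce in most adult tissues. Aminopeptidase A, from Enpep, shortens angiotensin II to angiotensin III, and the insulin-regulated aminopeptidase, from Lnpep, binds angiotensin IV. Agtrap encodes a membrane protein that binds AT1 and promotes its internalisation.

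Values are the authors' log2 intensities, on which 1 unit is a doubling. The median array value lay between 4.73 and 4.87 on the 6 arrays. The number of arrays limits the precision. Fibroblast markers were bright in both groups: all 8 listed markers were measured, and their mean was 12.14 to 12.28 on NDF arrays and 11.88 to 12.24 on CAF arrays. Of the 8, 2 had a higher mean in CAF and the others a lower one. Col1a2 (-0.52) and Col3a1 (-0.20) were lower in CAF without overlap, as were 8.66% of all genes. Pdgfra, the sort marker, was at 12.46 in NDF and 12.54 in CAF. Markers of other cells were present too. Neutrophil markers (5 measured) had a mean of 4.26 to 5.80 on NDF arrays and 8.95 to 10.44 on CAF arrays. Macrophage markers had one of 4.86 to 5.23 on NDF arrays and 6.83 to 7.76 on CAF arrays. Keratinocyte markers (7 measured) had a mean of 8.89 to 8.93 on NDF arrays and 9.42 to 10.79 on CAF arrays, and lymphocyte markers (5 measured) one of 3.64 to 3.93 and 4.66 to 6.06. The part of these cells in the values below was not tested. CAF replicate 3 stood apart, with a mean correlation of 0.924 with the other arrays of its group, against 0.948 to 0.982 for the other 5 arrays. Its 3′ to 5′ difference for the control gene Gapdh, 1.19, lay within the 0.98 to 1.5 of the others, and that for Actb, 1.30, lay below their 1.39 to 1.72. Member differences are given with and without this array, or as a range over single arrays left out.

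Promoter sequences are shown for Agtr2 and Agt, the receptor and ligand genes with the largest and the smallest difference between the groups. Each is the 250 bases before the annotated start, from RefSeq on build GRCm38.p6, 5′ to 3′ on the gene's strand. This assembly is of another mouse strain than FVB/n. The capitals mark matches to the core promoter pattern TATANA, searched on the gene's strand only.
Agtr2, chrX:21484374-21484623, plus strand: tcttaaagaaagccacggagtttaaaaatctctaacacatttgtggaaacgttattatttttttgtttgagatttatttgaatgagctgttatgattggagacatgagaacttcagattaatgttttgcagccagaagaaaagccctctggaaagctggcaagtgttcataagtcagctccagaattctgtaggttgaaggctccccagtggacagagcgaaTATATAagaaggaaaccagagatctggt
Agt, chr8:124569707-124569956, minus strand: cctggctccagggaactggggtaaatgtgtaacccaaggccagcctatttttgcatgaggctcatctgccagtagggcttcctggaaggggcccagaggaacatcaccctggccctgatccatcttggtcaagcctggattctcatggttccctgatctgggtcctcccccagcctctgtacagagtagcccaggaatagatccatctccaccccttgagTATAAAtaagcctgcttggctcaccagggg
Both windows held 1 match, which began 28 bases before the start in Agtr2 and 30 bases before it in Agt, and 16.4% of 32851 RefSeq promoter windows of this length held at least 1. G and C made up 38.4% of the Agtr2 window and 55.6% of the Agt window. In all, 6 of the 7 genes had a window in the RefSeq table, Ace with 2 starts. The windows of Ace, Enpep, Agtrap and Lnpep held no TATANA match.

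Agtr2, the AT2 receptor gene, was the member with the largest difference, and it was lower in CAF. It was at 8.28, 7.45 and 7.94 in NDF and at 5.12, 3.96 and 3.63 in CAF. Every CAF array lay below every NDF array, with a gap of 2.33 between the lowest NDF and the highest CAF value. The means were 7.89 ± 0.42 in NDF and 4.24 ± 0.78 in CAF (SD, n = 3), a difference of -3.66 ± 0.43 (moderated SE), or a 12.6-fold higher value in NDF on this scale. CAF replicates 2 and 3 lay below 4.84, the median of all probe set means, and close to its lower quartile of 3.60, where the normalisation compresses differences. In these bulk samples, fewer cells of a type and less RNA per cell cannot be told apart.

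In the fit over all 18193 genes, Agtr2 was the 1 member of the 6 measured that passed the threshold (limma adjusted p under 0.05), a threshold that 0.517% of all genes passed in either direction, 0.489% as higher and 0.0275% as lower in CAF. This contrast chose the genes, so nothing is read from the count. Without CAF replicate 3 the Agtr2 difference was -3.35 and without CAF replicate 1 it was -4.10. Without CAF replicate 2 it was -3.52, and without NDF replicate 1, 2 or 3 it was -3.46, -3.88 and -3.63. Agtr2 passed the threshold in 2 of these 6 fits, those without CAF replicate 1 or 3.

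**Figure D1:**
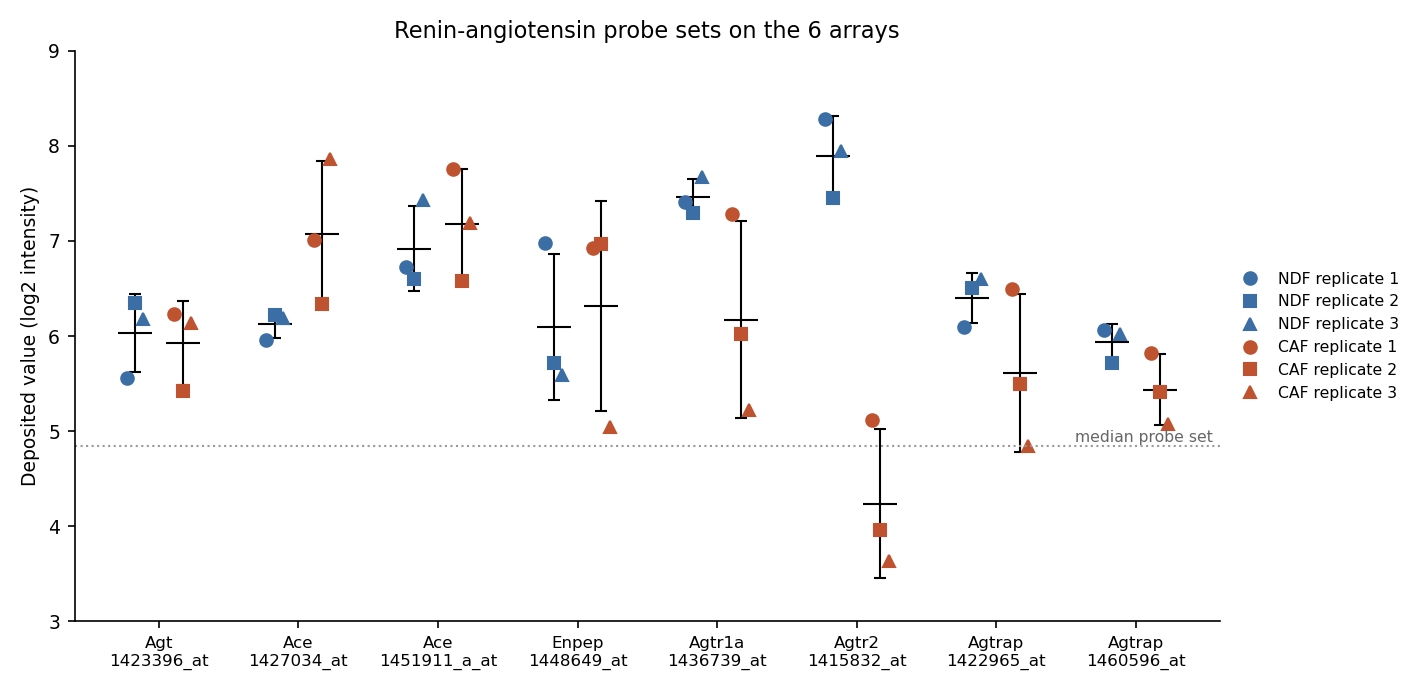
Deposited log2 intensity (vertical axis) of the 8 probe sets on the 6 arrays; points are arrays, coloured by group and shaped by replicate number, horizontal bars are group means and vertical bars the SD (n = 3), and the dotted line is the median of all probe set means (4.84). The Agtr2 points of NDF lie between 7.45 and 8.28 and those of CAF between 3.63 and 5.12, while in most other probe sets the groups meet or overlap.

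Of 6 markers of ear cartilage, 5 had a lower mean in CAF and Comp a higher one. Ear suspensions can hold cartilage cells, and all of these genes were measured, with a mean of 9.43 to 9.79 on NDF arrays and 8.58 to 9.14 on CAF arrays. None of the 6 passed the limma threshold over all genes, and 3 were lower at an unadjusted p under 0.05, as were 4.02% of all genes. The 3 were Cnmd, a cartilage secreted factor, at -2.0, Col2a1, the cartilage collagen, at -1.35, and Matn3, a cartilage matrix protein, at -1.08 (log2), and they are named here because of their values. Acan, the main cartilage proteoglycan, was at 12.59 in NDF and 12.21 in CAF, and Comp, another cartilage matrix protein, at 10.26 and 10.54. Matn1 was below the lower quartile of probe set means. The part of cartilage cells in the Agtr2 difference was not tested.

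Agtr1a, which encodes the main AT1 receptor of mice, was at a nearly constant level in NDF and spread widely in CAF. Its values were 7.41, 7.29 and 7.68 in NDF and 7.28, 6.02 and 5.22 in CAF. The groups did not overlap by a margin of only 0.01, since CAF replicate 1 was at the level of the lowest NDF array. The means were 7.46 ± 0.20 and 6.17 ± 1.04 (SD, n = 3), a difference of -1.29 ± 0.50 (moderated SE). The difference was -0.81 without CAF replicate 3 and -1.84 without CAF replicate 1, so these 2 arrays each moved it by more than any NDF array, whose removal gave -1.18 to -1.37.

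Agtrap, the gene of the AT1-associated protein, had 2 probe sets that differed in the same direction. Probe set 1422965_at was at 6.10, 6.51 and 6.60 in NDF and at 6.49, 5.5 and 4.85 in CAF. Probe set 1460596_at was at 6.07, 5.72 and 6.03 in NDF and at 5.82, 5.41 and 5.08 in CAF. In both, CAF replicate 1 lay within the NDF range and the other CAF arrays below it. The differences were -0.79 ± 0.42 and -0.50 ± 0.24 (moderated SE). Without CAF replicate 3 they were -0.41 and -0.32, and without CAF replicate 1 they were -1.23 and -0.69.

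The ligand precursor gene Agt showed almost equal group means. Its values were 5.56, 6.35 and 6.18 in NDF and 6.23, 5.42 and 6.14 in CAF. The groups overlapped over most of their range, and the difference was -0.11 ± 0.31 (moderated SE), with means of 6.03 ± 0.41 and 5.93 ± 0.44 (SD, n = 3). Leaving out single arrays moved it between -0.34 and 0.15. Agt is also a gene of fat cells, and the 5 measured adipocyte markers had a mean of 6.0 to 6.26 on NDF arrays and 6.37 to 6.55 on CAF arrays. Of these 5, Adipoq, Lep and Cidec lay below the lower quartile of probe set means, while Fabp4 and Lpl, which other cells express as well, were bright.

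Ace, the gene of the converting enzyme, gave different pictures with its 2 probe sets. On 1427034_at it was at 5.96, 6.23 and 6.19 in NDF and at 7.01, 6.33 and 7.86 in CAF. All CAF arrays lay above all NDF arrays there, by a gap of 0.11, and the difference was 0.94 ± 0.38 (moderated SE). On 1451911_a_at it was at 6.72, 6.60 and 7.43 in NDF and at 7.75, 6.58 and 7.19 in CAF, and the groups overlapped. The difference on this probe set was 0.26 ± 0.36. Without CAF replicate 3, the difference on 1427034_at was 0.55, since that array held its highest value. On 1451911_a_at it was then 0.25.

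Endothelial cells and macrophages also make the converting enzyme. All 8 endothelial markers listed were measured, none lay below the lower quartile, and 7 had a higher mean in CAF. Their mean was 5.41 to 5.78 on NDF arrays and 6.72, 7.65 and 6.47 on the CAF arrays. The highest endothelial mean was on CAF replicate 2, the CAF array on which both Ace probe sets had their lowest value. Macrophage markers (8 measured, 1 of them, Itgam, below the lower quartile) had means of 6.83, 7.31 and 7.76 on the CAF arrays. Their highest value was on CAF replicate 3, where 1427034_at was also highest. The part of either cell type in the Ace values was not tested.

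Enpep, the aminopeptidase A gene, varied more within each group than between them. It was at 6.98, 5.71 and 5.59 in NDF and at 6.93, 6.97 and 5.05 in CAF. The highest NDF array matched the higher CAF arrays, and CAF replicate 3 was the lowest of all 6. The difference was 0.22 ± 0.62 (moderated SE), and 0.86 without CAF replicate 3 or 0.67 without NDF replicate 1. Pericytes are known to carry aminopeptidase A, and the 10 pericyte and smooth muscle markers listed had a mean of 7.61 on NDF replicate 1 against 6.88 and 7.21 on the other NDF arrays. The smooth muscle actin gene Acta2 was at 11.00 on NDF replicate 1 and at 7.25 and 7.30 on the others. Tagln, another smooth muscle gene, was at 9.29 there against 6.78 and 7.17, whereas Kcnj8, Abcc9, Cspg4 and Des had their lowest NDF value on that array. On the CAF arrays the mean of this list was 7.79, 7.83 and 7.60. Of the 10 genes, 6 had a higher mean in CAF. Kcnj8, Abcc9, Cspg4 and Tagln had a lower one, with differences of -0.36, -0.32, -0.27 and -0.03. Rgs5, a pericyte regulator of G protein signalling, was at 10.41, 10.61 and 10.12 in CAF, against 9.11, 8.01 and 9.29 in NDF. The part of these cells in the Enpep values was not tested.

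**Figure D2:**
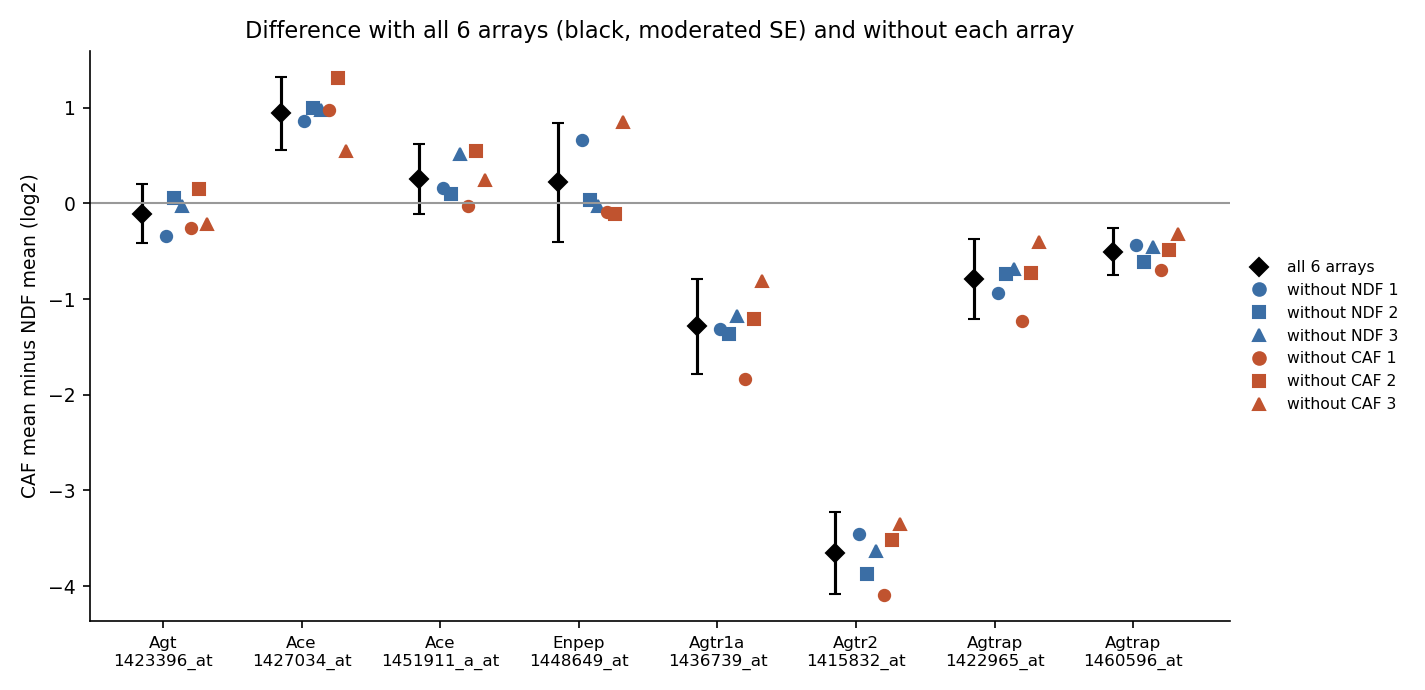
Difference between the CAF and NDF means (vertical axis, log2) for the 8 probe sets, with all 6 arrays as black diamonds with the moderated SE and with each array left out in turn as coloured points. Agtr2 stays between -4.10 and -3.35, Agtr1a between -1.84 and -0.81, and Agt, Enpep and Ace probe set 1451911_a_at have values on both sides of 0.

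Over the 8 probe sets, 3 had groups that did not overlap, 2 of them lower in CAF (Agtr2 and Agtr1a) and 1 higher (Ace on 1427034_at). Among all single-named probe sets, 13.9% did not overlap, 7.98% with all CAF arrays below and 5.92% with all CAF arrays above. The probe sets were chosen with this contrast known, and nothing is read from that comparison. CAF replicate 3 gave the lowest of the 6 values for 5 of the 8 (Agtr2, Agtr1a, Enpep and both for Agtrap), and 26.7% of all single-named probe sets had their lowest value on that array.

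The members' profiles were compared by a root mean square distance over the 6 arrays, taken after each probe set's own mean was subtracted. A distance of 0 means the same shape and size of variation. Among the members the smallest distance was between Agtr1a and Agtrap probe set 1422965_at, at 0.32 log2 units, below the 0.37 between the 2 Agtrap probe sets. Agtr2 was farther from Agtr1a, at 1.22. The range over the 6 arrays was 4.65 for Agtr2 and 2.45 for Agtr1a. Agtr2 was low on all CAF arrays and Agtr1a on 2 of them.

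Among 16336 other genes with an established name, the 5 nearest to Agtr2 were Cthrc1, Hs6st2, Itm2a, C1qtnf3 and Ncam2. Their distances were 0.64, 0.66, 0.76, 0.78 and 0.80, against a median of 1.90 over all genes. Cthrc1, which encodes a secreted collagen-associated protein, was at 9.78, 9.01 and 8.92 in NDF and 7.54, 6.41 and 6.39 in CAF. Hs6st2 encodes a heparan sulfate sulfotransferase, Itm2a a membrane protein, C1qtnf3 a secreted C1q family protein and Ncam2 a neural cell adhesion molecule. The differences of these 4 were -2.60, -2.19, -2.53 and -2.28, each smaller in size than that of Agtr2. The genes were picked for this pattern, so their values are a description.

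The 5 genes nearest to Agtr1a were Vstm4, Nfe2l3, Tnmd, Dym and R3hcc1, at distances of 0.12 to 0.20, against a median of 0.92 over all genes. Tnmd, which encodes the tendon membrane protein tenomodulin, was at 11.17, 11.58 and 11.69 in NDF and 11.49, 10.09 and 9.24 in CAF. Vstm4, a gene of an immunoglobulin-domain membrane protein, was at 8.64, 8.67 and 8.79 in NDF and 8.40, 7.41 and 6.56 in CAF. In all 5 the lowest array was CAF replicate 3, as for Agtr1a itself and for 26.7% of all single-named probe sets. These genes too were picked for their likeness to the member, so the shared lowest array is a description.

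**Figure D3:**
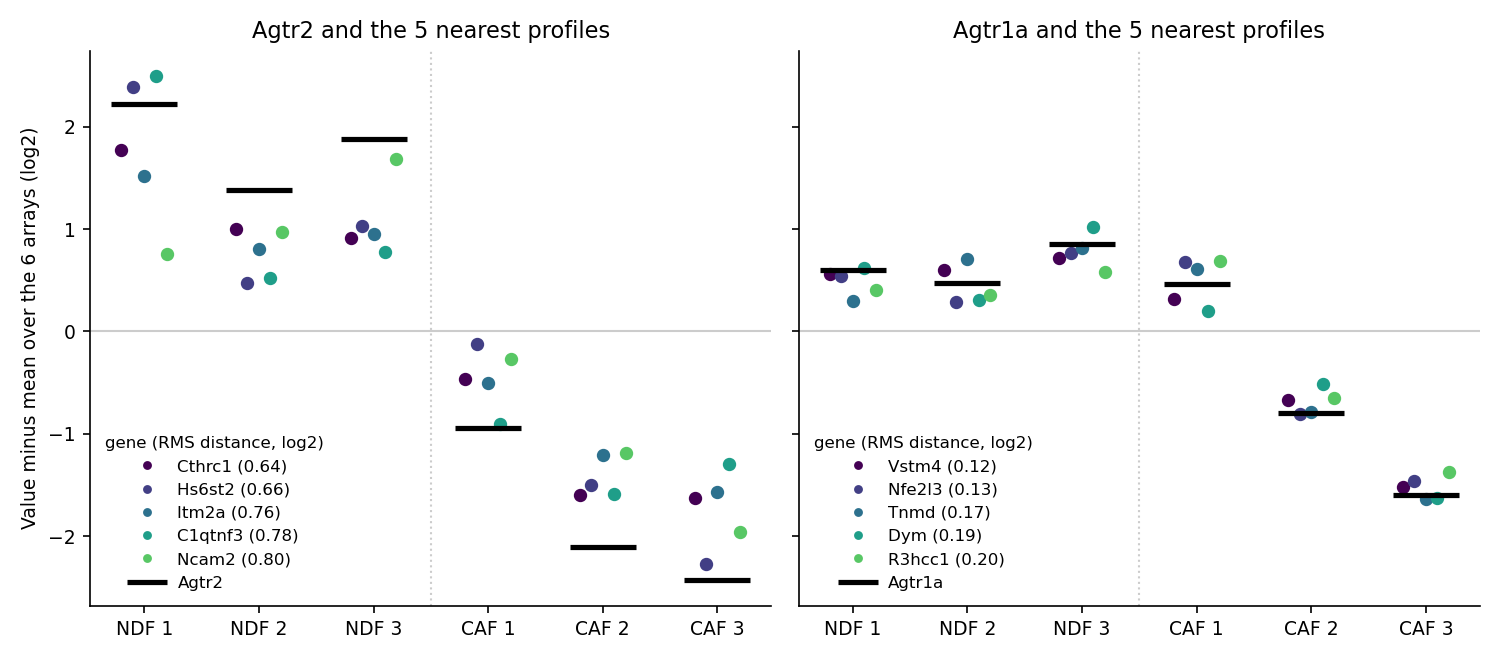
Value minus the mean over the 6 arrays (vertical axis, log2) on each array for Agtr2 (left) and Agtr1a (right), drawn as black bars, with the 5 genes of nearest profile as coloured points and their distance in the key. The Agtr2 neighbours are lower on all 3 CAF arrays, whereas the Agtr1a neighbours are near the NDF level on CAF replicate 1 and lowest on CAF replicate 3.

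The wider pathway was described with 36 further genes, of which 30 were measured. None of the 30 passed the limma threshold over all genes in either direction. At an unadjusted p under 0.05, 5 were higher in CAF and 0 lower, where 4.93% of all genes were higher and 4.02% lower. The median difference of the 30 was 0.01, beside -0.04 over all genes. The 5 were Rcan1, Bdkrb1, Rnpep, Edn1 and Bdkrb2. The groups did not overlap for 5 higher genes, the same with Tgfb1 in place of Edn1, and for 1 lower gene, Agtr1b; among all genes 6.78% were higher and 8.66% lower without overlap.

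Among genes upstream of the receptors, none passed the threshold. Atp6ap2, the prorenin receptor gene, was bright on all arrays, at 12.45 ± 0.15 in NDF and 12.13 ± 0.44 in CAF (SD, n = 3; limma adjusted p = 0.831). Its difference was -0.32, and -0.07 without CAF replicate 3. Ren1 and Ren2 were not analysed here. The mast cell chymase genes Cma1 and Mcpt4, whose enzymes can form angiotensin II without the converting enzyme, had equal or nearly equal group means, at 5.57 and 5.64 for Cma1 and 5.0 in both groups for Mcpt4. CAF replicate 3 was the lowest CAF array for both, and without it the Cma1 difference was 0.54 in place of 0.07. The mean of the 8 mast cell markers, these 2 included, was 4.22 to 4.63 on NDF arrays and 4.43 to 6.25 on CAF arrays. The genes of that list differed unevenly. Besides the 2 chymases, the differences were 3.67 for Hdc, 1.44 for Ms4a2, 0.89 for Tpsab1, 0.64 for Cpa3, 0.24 for Kit and 0.14 for Tpsb2. Cathepsin G (Ctsg), a neutrophil protease with the same ability, lay below the lower quartile, and 4 of its 6 arrays held the same value of 3.40. Neutrophil markers had a mean of 4.26 to 5.80 on NDF arrays and 8.95 to 10.44 on CAF arrays.

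Of the 6 measured genes of the angiotensin 1-7 arm and the 4 of other angiotensin peptidases, none passed and 1, Rnpep, had an unadjusted p under 0.05. Mme (neprilysin) and Nln (neurolysin), which can make angiotensin 1-7, differed by -0.66 and -0.34 (limma adjusted p = 0.802 and 0.797); a second Nln probe set gave 0.44. Without CAF replicate 3 the Mme difference was -0.14. Mas1, the receptor gene of that peptide, lay below the lower quartile, at a difference of 0.21. Rnpep, the aminopeptidase B gene, was at 5.62, 5.29 and 5.48 in NDF and at 6.01, 6.03 and 6.60 in CAF. All CAF arrays lay above the NDF arrays, and the limma adjusted p was 0.339. The puromycin-sensitive aminopeptidase gene Npepps differed by 0.06 (limma adjusted p = 0.978), or by 0.28 without CAF replicate 3.

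The second AT1 receptor gene of mice, Agtr1b, was dim in both groups, at 3.04 ± 0.17 in NDF and 2.74 ± 0.13 in CAF (SD, n = 3; limma adjusted p = 0.744), below the lower quartile of probe set means. Zbtb16 and Mtus1, genes of proteins that bind the AT2 receptor, were bright on the probe sets used. Both probe sets are of a type that can match more than 1 transcript. So are Ace probe set 1451911_a_at and those used for Atp6ap2, Cma1, Mcpt4, Rcan1 and Edn1. Zbtb16, a zinc finger transcription factor, differed by 0.27 (limma adjusted p = 0.816), and the median over its remaining probe sets was -0.32. Without probe sets of that type its difference was -0.67 ± 0.84 (moderated SE). Mtus1, the AT2 receptor-interacting protein gene, differed by -0.02 with a 95% interval of -0.79 to 0.74, and by 0.65 at the median over the remaining probe sets. CAF replicate 3 was its lowest array, at 9.22.

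The converting enzyme also breaks down bradykinin, and both bradykinin receptor genes had higher values in CAF. Bdkrb1, the inducible receptor, was at 5.45, 5.41 and 5.43 in NDF and at 6.52, 5.79 and 6.31 in CAF, a difference of 0.77 ± 0.23 (moderated SE; limma adjusted p = 0.322). Bdkrb2, the constitutive receptor, was at 5.74, 6.0 and 5.82 in NDF and 6.56, 6.09 and 6.43 in CAF. Its difference was 0.51 ± 0.20 (limma adjusted p = 0.507), beside 0.25 on a second probe set. On the probe set used for each gene, the NDF and CAF arrays did not overlap, as for 6.78% of all genes with higher values in CAF. The overlap on the second Bdkrb2 probe set was not examined.

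In the mineralocorticoid branch, Nr3c2, the aldosterone receptor gene, was at 6.80, 7.30 and 7.42 in NDF and at 6.84, 6.74 and 5.5 in CAF. The difference of -0.81 ± 0.39 did not pass (limma adjusted p = 0.636), and it was -0.38 without CAF replicate 3, its lowest array. The adrenal synthesis genes Cyp11b1 and Cyp11b2 lay below the lower quartile in these cells. Of 6 measured genes that AT1 signalling is known to raise, none passed. Rcan1, a calcineurin inhibitor gene, was at 8.19, 8.33 and 8.67 in NDF and 9.02, 9.35 and 9.22 in CAF, a difference of 0.80 ± 0.20 (limma adjusted p = 0.229), beside 0.28 on a second probe set. Edn1 (endothelin 1), which endothelial cells make in quantity, differed by 0.70 (limma adjusted p = 0.497). Ccn2, a matricellular growth factor gene, was at 13.51 in NDF and 13.48 in CAF.

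**Figure D4:**
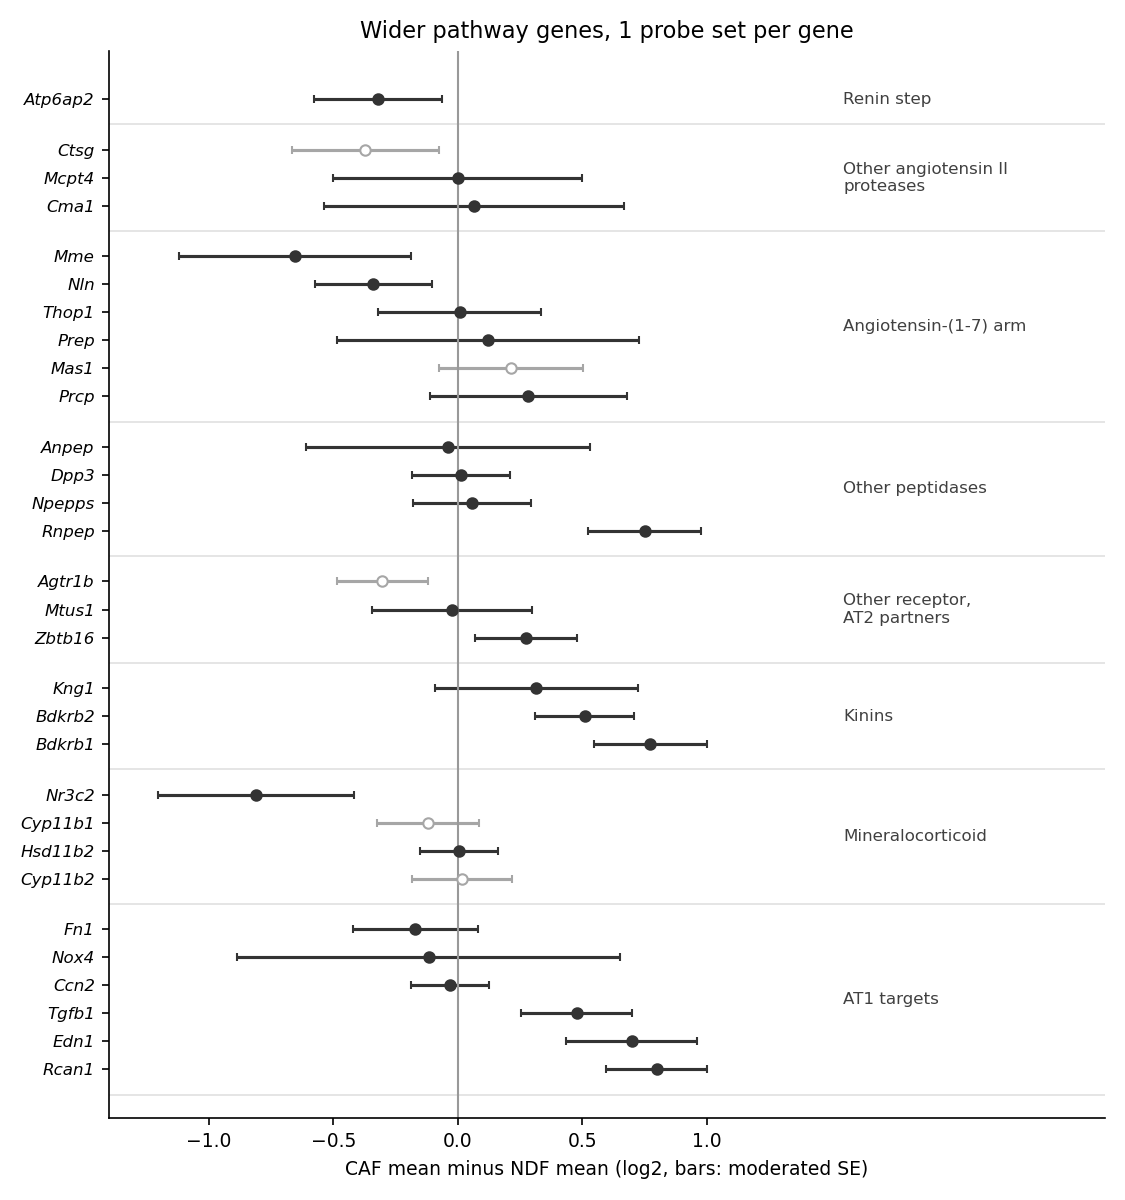
Difference between the CAF and NDF means (horizontal axis, log2) of the 30 wider pathway genes by role, with the moderated SE as bars; open grey points are genes below the lower quartile of probe set means. Rcan1, Bdkrb1 and Rnpep have the largest positive values (0.80, 0.77 and 0.75) and Nr3c2 the largest negative one (-0.81, or -0.38 without CAF replicate 3), and none passed the threshold.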

How the data were processed

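RNA of PDGFRα-sorted ear fibroblasts was amplified once and hybridised to Affymetrix mouse arrays, per the labels' protocols. The deposited values are log2 intensities (45101 probe sets), and GCOS and RMA are named in the submitters' processing notes, with versions and build not given in the sources used here. RMA brings arrays to 1 distribution and compresses low values. Detection calls and scanner files were not used here.

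Symbols came from the platform annotation, checked by gene identifier in RefSeq (34741 of 34945 matched). For tests, each gene's probe set with the highest mean was used. The groups were compared by limma 3.58.1 in R 4.3.3 (lmFit, eBayes, group as the only term, two-sided, Benjamini-Hochberg over 18193 genes, threshold 0.05). Members' differences and moderated SE come from a fit over all 45037 probe sets that are no controls. On simulated data of 18193 genes limma recovered 4% of genes changed by 1 log2 unit, 74% by 2, 92% by 3 and 94% by 4. The simulated noise was normal, equal in both groups and independent between arrays, with no outlying array such as CAF replicate 3. These rates need not hold for the deposited values.

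The members and the lists, written from textbook knowledge, were chosen with earlier results of these data known. Named were all members, up to 2 wider pathway genes per list with the smallest p, the 5 nearest profiles of members ranging over 2 log2 units, Pdgfra and bright markers; Mcpt4, Mtus1, Mas1, Cyp11b2, Ccn2, Tgfb1 and the markers named for their values or dimness fall outside that rule. Alternatives were other normalisations, probe set choices, filters, priors and weights, a replicate block and leaving out arrays; 1 was added after seeing the data.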

Additional observations from a re-analysis of the deposited data

How the results depend on the processing

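Of 101 member differences recomputed under the alternatives, 100 moved by less than the SD within groups. The exception was Enpep, at 1.30 without NDF replicate 1 and CAF replicate 3 together, a setting chosen after seeing the data. Leaving out 1 of the 3 arrays of a group cannot move a difference by as much as that SD. A replicate block cannot change it at all, and neither can dropping other probe sets. Most of that count was thus fixed in advance, and no robustness is read from it. Leaving out single arrays gave -4.10 to -3.35 for Agtr2, -1.84 to -0.81 for Agtr1a, -0.34 to 0.15 for Agt, 0.55 to 1.31 and -0.03 to 0.55 for the Ace probe sets, -0.11 to 0.86 for Enpep, and -1.23 to -0.41 and -0.69 to -0.32 for those of Agtrap. The Agtr2 difference lay between -4.10 and -3.10 over 16 alternatives. The 1 member past the limma threshold, from which nothing is read, was past it in 10 of the 16, and no other member in any. The count over all genes, 94, was 20 with a replicate block, 155 with an intensity trend and 438 with array quality weights, and 5 to 156 with single arrays left out; the cause was not tested. The wider pathway genes fitted gave 0 calls in every alternative, with 2 to 7 at an unadjusted p under 0.05. Not all 30 were fitted in each. Rcan1, Edn1 and Cma1, among others, had no probe set left without those that can match more than 1 transcript. Ctsg, Agtr1b and Cyp11b1, among others, were removed by the filter on brightness. For the replicate block, same-numbered arrays deviated from their group means with correlations of -0.14, 0.14 and -0.04. Only the arrays of replicate 2 correlated best with their own number. With 3 arrays per group these values cannot show whether the numbers pair the samples. No detection calls were used, so no limit from background was set for dim genes.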
